A study of Gloeophyllum trabeum with 9 samples.

Results

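The 6 genes described here encode transporters of the major facilitator superfamily (MFS) in the brown rot fungus Gloeophyllum trabeum: Glotr_77119 (protein ID 77119), Glotr_125226 (protein ID 125226), Glotr_117176 (protein ID 117176), Glotr_139707 (protein ID 139707), Glotr_122499 (protein ID 122499) and Glotr_131603 (protein ID 131603). They are 6 of the 11846 gene models measured. They were chosen by their rise on cellulose or cedar relative to glucose in these same libraries, as the MFS transporters that the study lists among its 20 most upregulated genes on either substrate: Glotr_117176 for cellulose alone, Glotr_139707, Glotr_122499 and Glotr_131603 for cedar alone, and Glotr_77119 and Glotr_125226 for both. Their levels on each substrate against glucose are therefore given as a description, with no test. The mycelium of strain NBRC6430 was grown with Japanese cedar for 5 days, with cellulose for 5 days or with glucose for 3 days as the carbon source, and 3 RNA libraries were made for each. Carbon source and culture age differed together between the wood or cellulose cultures and the glucose cultures, and their parts cannot be told apart. The values are TPM, an abundance for each transcript corrected for its length, which the authors rescaled between libraries. Reads were assigned to gene models of another strain of the species. The libraries summed to 835679 ± 108965 TPM on cedar, 1642270 ± 58751 on cellulose and 734489 ± 49505 on glucose (SD, n = 3 each), and the depth behind a single gene's value is unknown. In bulk mycelium, fewer hyphae that express a gene and less RNA in each hypha cannot be told apart.

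MFS proteins are membrane carriers that move small solutes such as sugars, organic acids, ions and drugs across a membrane, driven by a solute or proton gradient. In fungi the superfamily includes the hexose carriers, the lactose permease of yeasts and the cellodextrin transporters of Neurospora, which take up the short sugars that secreted cellulases release from cellulose. It also holds multidrug exporters, and which solute a carrier moves is seldom evident from its sequence. Brown rot fungi remove the polysaccharides of wood and leave a modified lignin, so on wood they meet sugars from cellulose and hemicellulose together with lignin fragments and resin compounds. The solutes that these 6 carriers move were not measured here.

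Glotr_77119 was the most abundant of the 6 on every carbon source by mean TPM. It had 582, 374 and 604 TPM in the cedar libraries, 1843, 2404 and 1988 TPM in the cellulose libraries, and 2.65, 3.42 and 2.87 TPM in the glucose libraries. The 3 groups did not overlap, with cellulose highest in each of its libraries and glucose lowest. The means were 520 ± 127 TPM on cedar, 2079 ± 291 on cellulose and 2.98 ± 0.401 on glucose (SD, n = 3 each), which is a ratio to glucose of 175 on cedar and 698 on cellulose. By mean TPM it ranked 99th of 11846 gene models on cedar, 48th on cellulose and 8534th on glucose.

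Glotr_125226 had the lowest level on glucose and the highest ratios of the 6. Its values were 342, 249 and 391 TPM in the cedar libraries, 198, 196 and 83.9 TPM in the cellulose libraries, and 0.0305, 0.392 and 0.116 TPM in the glucose libraries. The groups did not overlap, and the highest glucose library stood far below the lowest on either substrate. The means were 327 ± 72.4 TPM on cedar, 159 ± 65.3 on cellulose and 0.180 ± 0.189 on glucose (SD, n = 3 each), which gives a ratio to glucose of 1823 on cedar and 886 on cellulose. The glucose SD was as large as the glucose mean, so these ratios rest on a poorly known denominator. Between the closest libraries the ratio was 635 for cedar and 214 for cellulose.

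Glotr_117176 had the lowest ratio of cedar to cellulose among the 6. It had 26.2, 11.6 and 27.4 TPM in the cedar libraries, 142, 199 and 62.6 TPM in the cellulose libraries, and 0.582, 0.552 and 0.467 TPM in the glucose libraries. The 3 groups did not overlap, although the cellulose libraries spread widely (coefficient of variation 51.0%). The means were 21.7 ± 8.81 TPM on cedar, 135 ± 68.7 on cellulose and 0.534 ± 0.0595 on glucose (SD, n = 3 each). The ratio to glucose was 40.7 on cedar and 253 on cellulose.

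Glotr_139707 had 374, 518 and 410 TPM in the cedar libraries, 163, 152 and 321 TPM in the cellulose libraries, and 1.85, 1.82 and 1.84 TPM in the glucose libraries. The groups did not overlap, but the highest cellulose library came near the lowest cedar library, at a ratio of 1.16 between them. The means were 434 ± 75.1 TPM on cedar, 212 ± 94.8 on cellulose and 1.84 ± 0.0158 on glucose (SD, n = 3 each). The ratio to glucose was 236 on cedar and 116 on cellulose.

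Glotr_122499 had the highest ratio of cedar to cellulose among the 6. It had 356, 376 and 389 TPM in the cedar libraries, 11.6, 13.9 and 19.7 TPM in the cellulose libraries, and 1.72, 2.44 and 2.73 TPM in the glucose libraries. The cedar libraries lay close together (coefficient of variation 4.41%) and far above both other groups, which did not overlap each other. The means were 374 ± 16.5 TPM on cedar, 15.1 ± 4.16 on cellulose and 2.30 ± 0.519 on glucose (SD, n = 3 each). The ratio to glucose was 163 on cedar and 6.55 on cellulose.

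Glotr_131603 had 93.9, 56.5 and 104 TPM in the cedar libraries, 35.3, 44.8 and 25.8 TPM in the cellulose libraries, and 0.695, 0.744 and 0.839 TPM in the glucose libraries. The groups again did not overlap, with the closest cedar and cellulose libraries at a ratio of 1.26. The means were 84.8 ± 25.0 TPM on cedar, 35.3 ± 9.47 on cellulose and 0.759 ± 0.0732 on glucose (SD, n = 3 each). The ratio to glucose was 112 on cedar and 46.5 on cellulose.

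**Figure D1:**
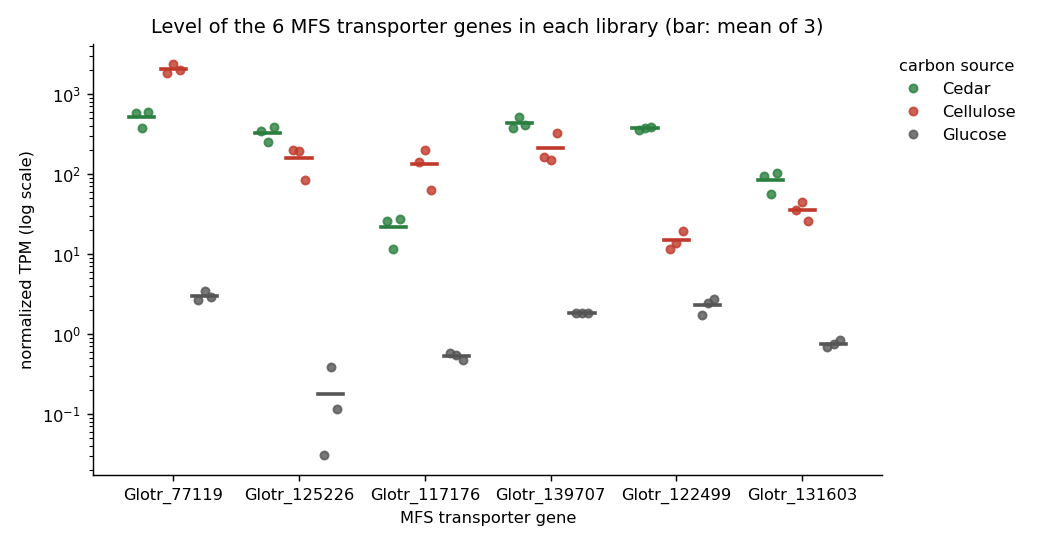
Normalized TPM (log scale) of the 6 MFS transporter genes, with a point for each of the 3 libraries on cedar (green), cellulose (red) and glucose (grey) and a bar at the mean. All glucose points lie at or below 3.42 TPM, while the substrate points run between 11.6 and 2404 TPM. Cedar is above cellulose for Glotr_125226, Glotr_139707, Glotr_122499 and Glotr_131603 and below it for Glotr_77119 and Glotr_117176.

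The order of the 6 genes by mean TPM differed between the carbon sources. On cedar the order was Glotr_77119, Glotr_139707, Glotr_122499, Glotr_125226, Glotr_131603 and Glotr_117176, and each of the first 3 overlapped the next in that order, while Glotr_125226, Glotr_131603 and Glotr_117176 did not overlap each other. On cellulose the order was Glotr_77119, Glotr_139707, Glotr_125226, Glotr_117176, Glotr_131603 and Glotr_122499. There Glotr_77119 stood clear of the rest, Glotr_139707 overlapped Glotr_125226, and Glotr_125226 overlapped Glotr_117176, which lay above Glotr_131603 without overlap, as did Glotr_131603 above Glotr_122499. On glucose Glotr_77119 overlapped Glotr_122499, Glotr_122499 overlapped Glotr_139707, and Glotr_131603, Glotr_117176 and Glotr_125226 followed without overlap. Glotr_122499 thus stood in the third place of 6 on cedar and in the last place on cellulose.

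Summed over the 6 genes, the libraries held 1762 ± 171 TPM on cedar, 2635 ± 329 on cellulose and 8.59 ± 0.951 on glucose (SD, n = 3 each). As a share of each library's own total the order of the substrates was the other way: 0.212% ± 0.0130 on cedar, 0.160% ± 0.0172 on cellulose and 0.00117% ± 0.000159 on glucose. A library's scale factor changes the summed TPM but not this share. The share was 0.198%, 0.223% and 0.214% in the cedar libraries, each above the 0.152%, 0.180% and 0.149% of the cellulose libraries. Nor does a scale factor change the make-up of the sum. Glotr_77119 alone was 78.8% ± 1.56 of the sum on cellulose. On cedar the leading gene held 32.3% ± 0.795, and it was Glotr_77119 in replicates 1 and 3 and Glotr_139707 in replicate 2.

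Each gene's place among the upregulated genes that had a ratio to glucose shows how far the list reaches. Genes counted as upregulated or downregulated had a Benjamini-Hochberg adjusted p under 0.01 in limma's moderated test on log2(TPM + 0.5), and their mean TPM differed at least 2-fold (a ratio of at most 0.5 for a fall). On cellulose against glucose 10.4% of the tested genes were upregulated and 13.9% were downregulated, and on cedar against glucose 15.2% and 15.7%. The libraries of the groups did not overlap for 71.4% of gene models between cedar and glucose and for 62.7% between cellulose and glucose, so groups that do not overlap were common. By ratio to glucose on cedar, in this test, Glotr_125226 was the second of 1596 upregulated genes, Glotr_139707 the 9th, Glotr_77119 the 13th, Glotr_122499 the 17th and Glotr_131603 the 21st. Around that edge, Glotr_137467 had a ratio of 114 and Glotr_58342 of 107, beside 112 for Glotr_131603. Glotr_117176, which was chosen for cellulose, was the 45th on cedar.

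On cellulose, 1091 upregulated genes had a ratio to glucose and 2 more had none. By this ratio Glotr_125226 was the 5th, Glotr_77119 the 7th and Glotr_117176 the 16th. Glotr_139980, the 20th, had a ratio of 196 and Glotr_130130, the 21st, of 194, beside 253 for Glotr_117176. The 3 genes chosen for cedar alone followed at the 28th place (Glotr_139707), the 54th (Glotr_131603) and the 283rd (Glotr_122499). On the scale of the fit, log2(TPM + 0.5), the differences from glucose were 7.20 for Glotr_77119, 8.92 for Glotr_125226, 4.33 for Glotr_117176, 7.53 for Glotr_139707, 7.08 for Glotr_122499 and 6.04 for Glotr_131603 on cedar. On cellulose they were 9.22, 7.81, 6.88, 6.42, 2.46 and 4.80 in the same order. With every library set to the same total TPM, the differences on cellulose were 8.13, 7.06, 5.96, 5.36, 1.41 and 3.84 in that order. The added 0.5 TPM lowers these values most for Glotr_125226 and Glotr_117176, whose glucose levels are near or under 0.5 TPM.

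The comparison of cedar with cellulose asks whether a gene's response differed between wood and its main polysaccharide. A test was made for Glotr_77119 and Glotr_125226, which stand on both lists and were thus not chosen for a difference between the substrates. Over all gene models, 10.7% were higher and 5.95% lower on cedar than on cellulose, and the libraries did not overlap for 57.3%. Glotr_77119 was lower on cedar, with a ratio of 0.2501 and a log2 difference of -2.02 (SE 0.264, 95% interval -2.65 to -1.39, adjusted p = 0.00206 by limma). All 3 cedar libraries were below all 3 cellulose libraries, the closest pair at a ratio of 0.328. This call was lost without cedar replicate 1 (-2.12, adjusted p = 0.0106) or cedar replicate 3 (-2.15, adjusted p = 0.0118), and with quantile normalization (-0.95, adjusted p = 0.0167), which also lowered the difference. With every library set to the same total TPM the call was kept, but the log2 difference was only -1.04 (adjusted p = 0.00463 by limma). The size of the difference thus depends on the scaling.

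Glotr_125226 did not pass the threshold between the substrates. Its ratio of cedar to cellulose was 2.06 and its log2 difference 1.12 (SE 0.372, 95% interval 0.231 to 2.001, adjusted p = 0.0487 by limma), with all 3 cedar libraries above all 3 cellulose libraries. With every library set to the same total TPM the log2 difference was 2.10 (adjusted p = 0.00106), and without cellulose replicate 3 it was lowest, at 0.71. The interval covers both a small difference and a difference of 4-fold.

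For the 4 genes that were chosen on a single substrate the difference between the substrates is only a description. The ratio of cedar to cellulose was 0.161 for Glotr_117176, against 2.05 for Glotr_139707, 24.8 for Glotr_122499 and 2.40 for Glotr_131603. Their log2 differences were -2.55, 1.10, 4.62 and 1.24 in that order. All 6 genes kept the direction of this difference under 17 of 17 alternative settings. With the libraries set to the same total TPM the differences were -1.58 for Glotr_117176, 2.08 for Glotr_139707, 5.58 for Glotr_122499 and 2.21 for Glotr_131603. Glotr_122499 thus had the largest difference between the substrates under either scaling.

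The replicates of a substrate did not vary in the same way for every gene. Cedar replicate 2 was the lowest of its group for Glotr_77119, Glotr_125226, Glotr_117176 and Glotr_131603, at -0.67, -0.56, -1.21 and -0.81 log2 units from the mean of the other 2 libraries. In the same library Glotr_139707 was highest, at 0.40. Among 9761 gene models with a mean of at least 1 TPM, 46.4% were lowest and 39.1% highest in cedar replicate 2, with a median departure of -0.037. Being lowest in that library was thus common.

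Cellulose replicate 3 showed a like division. It was the lowest of its group for Glotr_117176 (-1.45), Glotr_125226 (-1.23) and Glotr_131603 (-0.63) and the highest for Glotr_139707 (1.03) and Glotr_122499 (0.63). Of the gene models, 37.4% were lowest and 37.5% highest there, with a median departure of -0.011. Across the 6 cedar and cellulose libraries, after subtracting each group's mean, Glotr_117176 followed Glotr_131603 (r = 0.97) and Glotr_125226 (r = 0.93), and ran opposite to Glotr_139707 (r = -0.93). Glotr_139707 ran with Glotr_122499 (r = 0.85) and opposite to Glotr_125226 (r = -0.97). The departure was largest in cellulose replicate 3 for Glotr_117176, Glotr_139707, Glotr_122499 and Glotr_125226 and in cedar replicate 2 for Glotr_131603 and Glotr_77119. The correlations share these libraries and are given as a description. Over all 9 libraries, which also hold the differences between the groups, r of log2(TPM + 0.5) between the members ran between 0.46 (Glotr_117176 and Glotr_122499) and 0.99 (Glotr_131603 and Glotr_125226).

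**Figure D2:**
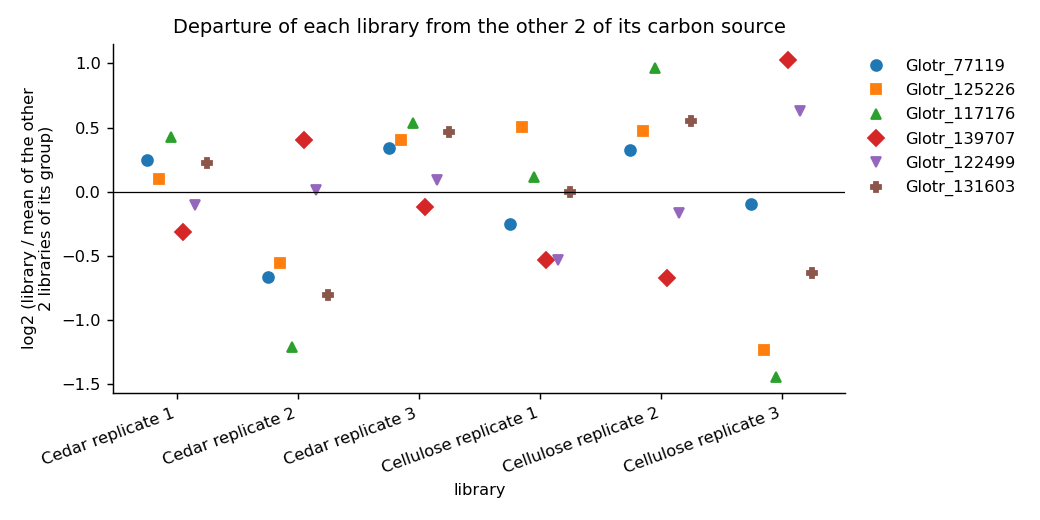
Departure of each cedar and cellulose library from the mean of the other 2 libraries of its carbon source (log2 units), for each of the 6 MFS transporter genes. In cedar replicate 2 Glotr_139707 is at 0.40 while Glotr_117176 is at -1.21, and in cellulose replicate 3 they are at 1.03 and -1.45.

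Glotr_122499 and Glotr_131603 are near each other in the genome. In the RefSeq annotation of assembly Glotr1_1, whose scaffold is not named in the table used, Glotr_122499 spans 1426633 to 1429592 and Glotr_131603 spans 1434011 to 1436726, with 4418 bp between them. The gene model Glotr_46298, annotated as a cytochrome P450 (a heme monooxygenase family that oxidizes small molecules), lies in this gap, 574 bp from Glotr_122499 and 1519 bp from Glotr_131603. By the order of gene starts, Glotr_117176 (627837 to 629911) is on the same stretch, 796721 bp from Glotr_122499. Glotr_139707 (230663 to 233512), Glotr_125226 (467834 to 470090) and Glotr_77119 (421946 to 423782) are on other stretches. The strand of the genes was not given.

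Glotr_46298 was highest on cedar, as were the carriers beside it, which were chosen for their rise there. Its rise on cedar against glucose was smaller than theirs, while its ratio of cedar to cellulose was near that of Glotr_131603 (2.40). It had 61.2, 72.0 and 69.3 TPM in the cedar libraries, 33.0, 35.1 and 30.0 TPM in the cellulose libraries, and 25.1, 21.97 and 21.9 TPM in the glucose libraries. All cedar libraries were above all others. It rose on cedar against glucose (ratio 2.94, log2 change 1.53, SE 0.106, adjusted p = 2.61e-05 by limma) and was higher on cedar than on cellulose (ratio 2.06, log2 difference 1.03, adjusted p = 0.00196). On cellulose against glucose it did not pass the thresholds (ratio 1.42, adjusted p = 0.0139).

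The 2 gene models on the far side of Glotr_122499 were Glotr_140164, which is 154 bp away, and Glotr_95302. Glotr_95302 rose on cedar, with 4.05 ± 0.831 TPM on cedar, 1.53 ± 0.342 on cellulose and 0.812 ± 0.0776 on glucose (SD, n = 3 each, adjusted p = 9.57e-05 for cedar against glucose and 0.00522 for cedar against cellulose by limma). Glotr_140164 passed on cellulose only, at 27.9 ± 11.5 TPM on cellulose and 9.20 ± 0.959 on glucose (adjusted p = 0.00548 by limma). On cedar it had 17.3 ± 5.12 TPM, with every library above those on glucose (adjusted p = 0.00795 by limma). Its ratio there, 1.88, missed the 2-fold threshold. The call on cellulose was lost without cellulose replicate 1 or without any 1 of the glucose libraries. It was also lost with the same total TPM (log2 change 0.35, adjusted p = 0.28, against 1.48 as deposited). Beyond Glotr_131603, Glotr_131604 passed in neither comparison with glucose, and Glotr_95307 fell on both substrates, to 0.768 ± 0.143 TPM on cedar and 0.333 ± 0.0951 on cellulose, against 1.58 ± 0.120 on glucose (SD, n = 3 each). The fall of Glotr_95307 on cedar (adjusted p = 0.00315) was lost without cedar replicate 2 or glucose replicate 1 or 2. The raised levels on cedar were thus not shared by every gene model of the stretch.

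Beside Glotr_125226 the neighbour Glotr_125225, 780 bp away, also had a large rise on both substrates. Its log2 changes were within the range of the 6 carriers but below those of Glotr_125226 (8.92 on cedar and 7.81 on cellulose). It had 108, 86.4 and 115 TPM in the cedar libraries, 130, 156 and 61.7 TPM in the cellulose libraries, and 1.46, 1.35 and 1.02 TPM in the glucose libraries. Every library on a substrate was far above every glucose library, while the substrates overlapped. It rose on cedar (ratio 80.9, log2 change 5.87, SE 0.1495, adjusted p = 4.15e-07 by limma) and on cellulose (ratio 91.0, log2 change 5.94, SE 0.341, adjusted p = 3.55e-05). Between the substrates it did not pass (log2 difference -0.075, SE 0.349, adjusted p = 0.876). Its lowest libraries, cedar replicate 2 and cellulose replicate 3, are also the lowest of Glotr_125226. No name for Glotr_125225 was found in the annotation used, which held names for only 1734 of the 11846 gene models.

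Glotr_54463, the gene model beyond Glotr_125225, fell on cedar to 68.9 ± 11.04 TPM, against 167 ± 23.7 on glucose (SD, n = 3 each, adjusted p = 0.000473 by limma). On the other side of Glotr_125226, Glotr_109457 and Glotr_69914 passed in no comparison. Next to Glotr_117176, Glotr_111840, which is 860 bp away, rose on both substrates, with 114 ± 21.9 TPM on cedar, 194 ± 68.1 on cellulose and 24.2 ± 0.819 on glucose (adjusted p = 2.70e-05 for cedar and 0.000138 for cellulose). It had ratios to glucose of 4.71 and 7.999, so like Glotr_117176 its mean was higher on cellulose than on cedar, but that difference did not pass (adjusted p = 0.0734). Glotr_117172 fell on both substrates, to 0.504 ± 0.0726 TPM on cedar and 0.587 ± 0.0571 on cellulose, against 1.28 ± 0.187 on glucose. Its call on cellulose (adjusted p = 0.00761) was lost without any 1 of the 6 libraries. Glotr_111841 and Glotr_131356, on the other side of Glotr_117176, passed in neither comparison with glucose.

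Beside Glotr_77119 the changes went both ways. Glotr_61700, 42 bp away, fell to 5.21 ± 0.128 TPM on cedar and 5.32 ± 0.399 on cellulose, against 21.3 ± 0.832 on glucose (SD, n = 3 each, adjusted p = 3.47e-06 for cedar and 4.07e-05 for cellulose by limma). On the other side Glotr_116415 had 11.9 ± 1.03 TPM on cedar, 24.2 ± 1.93 on cellulose and 8.89 ± 0.591 on glucose, and Glotr_61689 had 152 ± 34.0, 580 ± 126 and 267 ± 34.4 TPM. Both rose on cellulose (adjusted p = 0.00017 and 0.00564) and both were lower on cedar than on cellulose (adjusted p = 0.00208 each), as was Glotr_77119. With libraries set to the same total TPM neither passed on cellulose against glucose, and the log2 change of Glotr_61689 turned to -0.061. Their differences between cedar and cellulose (ratios 0.493 for Glotr_116415 and 0.262 for Glotr_61689) were not rerun under that or any other alternative. That scaling moved the median log2 difference of all gene models between cedar and cellulose from 0.049 to 0.91. The call of Glotr_61689 on cellulose was also lost without any 1 of the 6 libraries except cellulose replicate 1. Around Glotr_139707, Glotr_78478 fell on cedar to 8.69 ± 0.931 TPM, against 19.96 ± 2.32 on glucose (adjusted p = 0.000197), and the others (Glotr_94714, Glotr_111677 and Glotr_44755, a ribosomal protein gene) were not called against glucose, with Glotr_94714 too low to test.

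In all, 21 gene models lie within 2 places of the 6 genes, and 19 of them were tested. On cedar 4 rose and 5 fell against glucose, which is 21.1% and 26.3% beside 15.2% and 15.7% of all gene models. On cellulose 5 rose and 3 fell, 26.3% and 15.8% beside 10.4% and 13.9%, and 3 rose without any 1 of the glucose libraries. The median log2 change of the neighbours was 0.26 on cedar and 0.19 on cellulose, beside 0.038 and -0.086 over all gene models. Within 5 places, 46 gene models were tested, of which 6 rose and 8 fell on cedar and 5 rose and 6 fell on cellulose. As shares of the 46 these are near the shares of all gene models, so the higher shares within 2 places did not hold in the wider window. Apart from Glotr_125225, the neighbours called in these comparisons had ratios to glucose between 0.211 (Glotr_95307 on cellulose) and 7.999 (Glotr_111840 on cellulose).

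**Figure D3:**
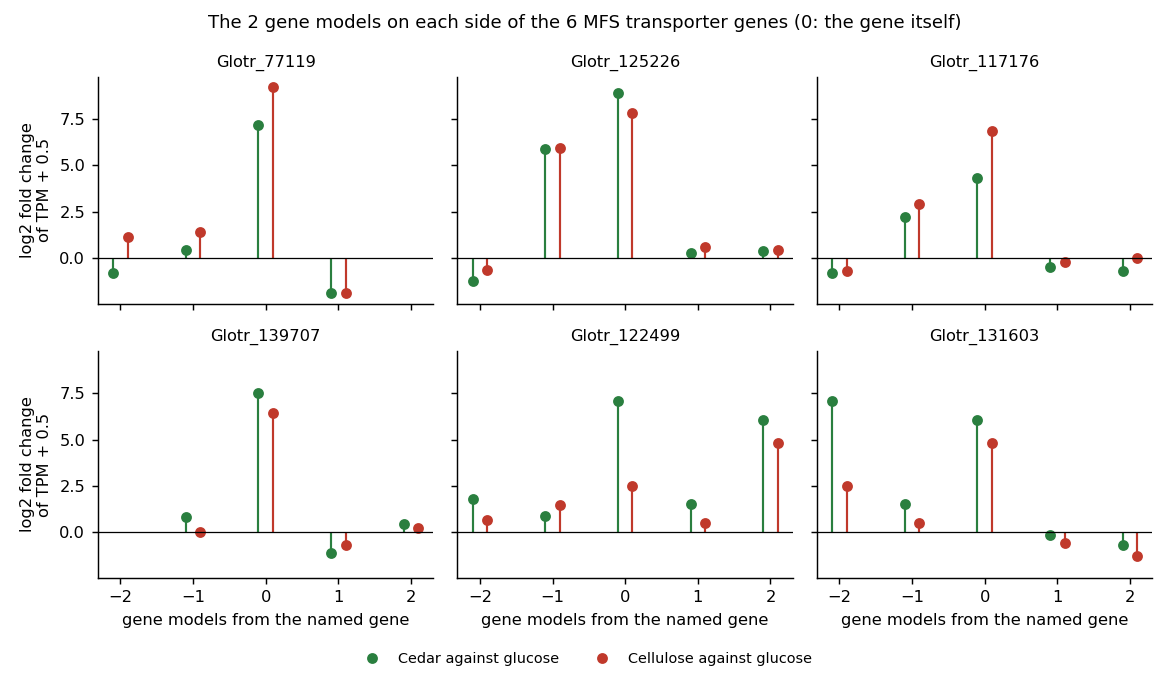
Log2 fold change of TPM + 0.5 on cedar (green) and cellulose (red) against glucose for each of the 6 MFS transporter genes (position 0) and the 2 gene models on each side, in order of gene starts. Of the neighbours that are not themselves among the 6, Glotr_125225 (5.87 on cedar and 5.94 on cellulose) stands highest; Glotr_122499 and Glotr_131603 appear in each other's panels, and 2 gene models that were not tested are left out.

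To set the 6 carriers beside other MFS genes, the gene models were searched for MFS names. Names were held for 1734 of the 11846 gene models, and 35 of these were MFS, sugar, general substrate or multidrug transporters, none of them among the 6. The 35 are a part of the superfamily in this genome, so their counts describe these genes only. The summed level of the 35 was 603 ± 26.5 TPM on cedar, 824 ± 182 on cellulose and 656 ± 12.8 on glucose (SD, n = 3 each). The 6 carriers summed to 2.92 ± 0.221 times that level on cedar and 3.30 ± 0.769 times on cellulose, against 0.0131 ± 0.00123 times on glucose. This ratio is taken within a library, so a scale factor does not change it. The 6 were chosen for their rise from glucose, so its difference from glucose follows from that choice and is only a description.

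Of the 32 that were tested, 7 rose and 7 fell on cedar against glucose, and 6 rose and 11 fell on cellulose. These are 21.9% and 21.9% on cedar, beside 15.2% and 15.7% of all gene models tested. On cellulose they are 18.8% and 34.4%, beside 10.4% and 13.9%. The median log2 change was 0.27 on cedar and -0.51 on cellulose, beside 0.038 and -0.086 over all gene models. With libraries set to the same total TPM the counts on cedar were again 7 and 7, and on cellulose 3 rose and 21 fell, while 3.36% of all gene models then rose and 56.5% fell on cellulose. By ratio to glucose on cedar, Glotr_34700 (a general substrate transporter) was the 137th of the upregulated genes, at 79.3 ± 15.5 TPM on cedar and 5.52 ± 0.214 on glucose, a ratio of 14.4 (adjusted p = 2.18e-06 by limma). On cellulose the highest was Glotr_46872 (a sugar transporter), the 136th, at 140 ± 39.2 TPM on cellulose and 8.58 ± 0.810 on glucose, a ratio of 16.3 (adjusted p = 2.73e-05).

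Other genes of the list rose on both substrates too. Glotr_46872 had a ratio of 9.32 on cedar, Glotr_34700 of 13.3 on cellulose, and Glotr_46310 (a general substrate transporter) of 6.80 on cedar and 14.1 on cellulose. Glotr_46502 rose on cedar to 6.72 ± 2.74 TPM, against 0.929 ± 0.301 TPM on glucose (SD, n = 3 each, adjusted p = 0.000551 by limma). Glotr_31626 and Glotr_37730 were the most abundant of the 35 on both substrates, at 113 ± 19.9 and 94.4 ± 9.71 TPM on cedar and 172 ± 5.50 and 198 ± 91.3 TPM on cellulose. They were already at 75.8 ± 2.07 and 63.9 ± 7.64 TPM on glucose, a level at which none of the 6 carriers was found there.

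The opposite pattern was also present among MFS genes. Glotr_41449 was the most abundant of the 35 on glucose, with 8.75, 10.1 and 7.92 TPM in the cedar libraries, 14.0, 13.7 and 43.6 TPM in the cellulose libraries, and 172, 207 and 219 TPM in the glucose libraries. It fell on cedar (log2 change -4.40, SE 0.134, adjusted p = 7.39e-07 by limma) and on cellulose (-3.25, SE 0.436, adjusted p = 0.00119). Glotr_38489 fell to 1.72 ± 0.635 TPM on cedar and 0.658 ± 0.157 on cellulose, against 41.8 ± 10.8 on glucose (adjusted p = 1.90e-05 and 1.19e-05). Glotr_6663 fell to 2.58 ± 0.699 and 3.18 ± 0.968 TPM, against 58.7 ± 5.35 on glucose (adjusted p = 2.88e-06 and 2.80e-05). Glotr_42573, named as a multidrug transporter, fell on cellulose to 1.55 ± 0.490 TPM, against 22.01 ± 4.15 on glucose (adjusted p = 4.68e-05).

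**Figure D4:**
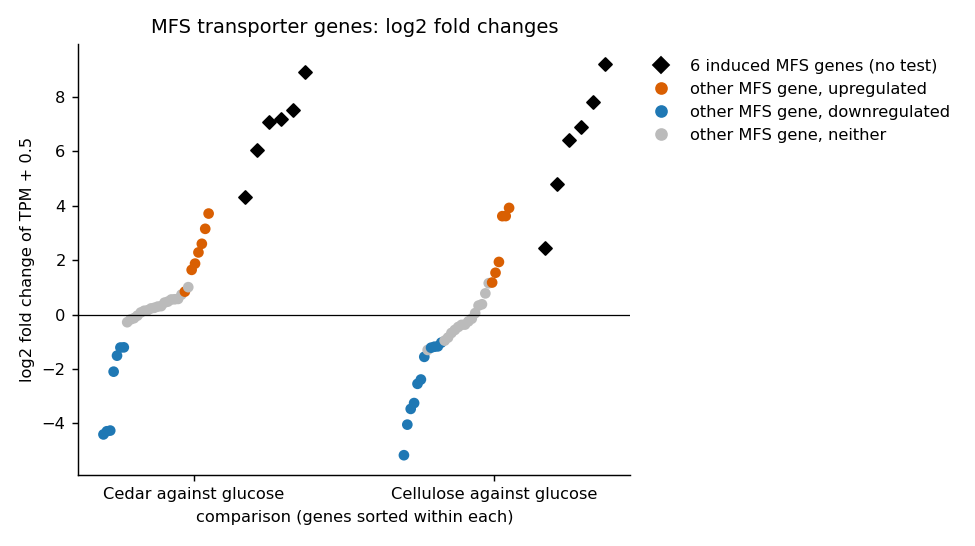
Log2 fold change of TPM + 0.5 on cedar and on cellulose against glucose for the 6 MFS transporter genes (black diamonds, shown without a test because they were chosen for this change) and the 32 other MFS-named genes tested (circles: orange upregulated, blue downregulated, grey neither). On cedar the lowest of the 6 is at 4.33 and the highest other gene at 3.71. On cellulose Glotr_122499 (2.46) is below the highest other genes (up to 3.92).

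Between cedar and cellulose, 12 of the 32 MFS-named genes were higher and 1 (Glotr_46310) was lower on cedar, with a median log2 difference of 0.81 beside 0.049 over all gene models. The share that was higher, 37.5%, stands beside 10.7% of all gene models. This count fell to 5 without cedar replicate 1 and to 3 without cedar replicate 3, and with the same total TPM it was 21, while 46.7% of all gene models were then higher. The share of all gene models was not counted for the fits without a library, so whether that fall is particular to this list is unknown. Of the carriers chosen on both substrates, Glotr_125226 lay in the same direction but did not pass (adjusted p = 0.0487 by limma). Glotr_77119 lay in the opposite direction. Glotr_139707, Glotr_122499 and Glotr_131603 were higher on cedar, the only substrate they were chosen for, and Glotr_117176 was higher on cellulose, its only substrate. That choice favoured these signs, so they cannot be weighed against the count of MFS-named genes.

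The genes whose pattern over the 9 libraries was most like that of each carrier were found by Pearson's r of log2(TPM + 0.5), among 10021 gene models with a mean of at least 1 TPM in at least 1 group. They were Glotr_131138, Glotr_113711 and Glotr_68450 for Glotr_117176, Glotr_121201, Glotr_135510 and Glotr_141070 for Glotr_139707, and Glotr_59395, Glotr_74260 and Glotr_121909 for Glotr_122499. For Glotr_131603 they were Glotr_111219, Glotr_81668 and Glotr_139378, for Glotr_125226 they were Glotr_81668, Glotr_140284 and Glotr_131603 itself, and for Glotr_77119 they were Glotr_136615, Glotr_43151 and Glotr_99696. Their r lay between 0.992 and 0.999, but an r of at least 0.95 was reached by between 154 (Glotr_122499) and 396 (Glotr_77119) gene models. These are 1.54% and 3.95% of those compared.

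Likeness of pattern did not mean likeness of level or size of change. Glotr_113711, like Glotr_117176 higher on cellulose than on cedar, had 1240 ± 190 TPM on cedar, 2870 ± 453 on cellulose and 365 ± 29.2 on glucose (SD, n = 3 each). Glotr_131138 had 6.42 ± 2.14, 21.6 ± 9.19 and 0.254 ± 0.0585 TPM. Glotr_141070, the like of Glotr_139707 with the largest change, had 279 ± 42.5 TPM on cedar, 126 ± 44.5 on cellulose and 2.21 ± 0.539 on glucose. Glotr_99696, like Glotr_77119, had 163 ± 20.1 TPM on cedar, 289 ± 7.55 on cellulose and 7.23 ± 0.637 on glucose, and Glotr_43151, annotated as an acyltransferase, had 81.6 ± 4.68, 113 ± 2.95 and 23.2 ± 1.04 TPM. Glotr_74260, like Glotr_122499, had 42.3 ± 6.18 TPM on cedar, 11.9 ± 1.99 on cellulose and 4.51 ± 0.331 on glucose. Glotr_140284, which the study names as a cytochrome P450, had 15.2 ± 1.44, 12.3 ± 1.42 and 1.85 ± 0.271 TPM.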

How the data were processed

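RNA-seq libraries (3 for each of cedar, cellulose and glucose) were analysed from the table that the authors deposited. The authors filtered the reads with FaQCs, pseudoaligned them with Kallisto 0.44.0 to filtered JGI gene models, and normalized TPM with Sleuth 0.29.0. The deposited signal values are these normalized TPM, 1 column a library, none pooled, and 0 columns were unused. The design assumed TPM that sum to the same total in every library; the columns do not, and its test was kept, with other scalings as alternatives. Kallisto divides reads shared by similar transcripts by estimation, so values of near-identical family members are uncertain. The labels number the samples of a group without saying more than that they are replicates, so p-values measure the spread between these libraries.

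Each pair of carbon sources was fitted with limma 3.58.1 in R 4.3.3 (lmFit, eBayes with trend, no covariate) on log2(TPM + 0.5), over gene models that reached 0.1 TPM in 3 or more of the 6 libraries, with adjustment over all gene models tested; all 6 carriers passed this filter in each comparison. The test was tested on simulated data. Tables and plots used Python 3.11.15, pandas 2.3.3, NumPy 2.4.6 and matplotlib 3.10.9. Alternatives were the added value, the filter, the scaling, the trend, a replicate block, a fit of all 3 groups together, a threshold of 0.05 for the adjusted p and the removal of each library in turn. The members and lists were chosen with earlier results of these data known.

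The genes named were the 6 carriers, the 2 gene models on each side, the 3 most alike for each carrier, and, of the MFS-named genes, the 3 largest rises and falls on each substrate, the 3 most abundant on each carbon source and the highest ranked by ratio. This last part of the rule was written for relatives by protein sequence. No protein table was used here, so relatives and identities were not analysed, and the MFS-named genes took their place; their names came from the study's annotation of 1734 gene models. The tests of neighbours and of MFS-named genes between cedar and cellulose, and the window of 5 gene models, were added after seeing the data, as were Glotr_46310 on cedar and the 4 genes beside the edge of the 20 most upregulated. Positions came from RefSeq (assembly Glotr1_1), matched for 11422 gene models and unmatched for 424.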

Additional observations from a re-analysis of the deposited data

How the results depend on the processing

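The direction of all 6 carriers against glucose and between the substrates was the same under every alternative run. With libraries set to the same total TPM, the median log2 change of all gene models was -1.09 on cellulose against glucose and 0.91 between cedar and cellulose, beside -0.086 and 0.049 as deposited, and on cedar against glucose it was -0.12. Of all calls, 5.61% were then rises on cellulose, beside 42.8% as deposited, 39.7% on cedar, beside 49.1%, and 97.2% between cedar and cellulose, beside 64.3%. With that scaling the MFS-named genes that rose on cellulose were 3 and those that fell 21, 21 were higher and 0 lower on cedar than on cellulose, 2 neighbours rose and 8 fell on cellulose, Glotr_61689 on cellulose turned to -0.061, and Glotr_125226 between the substrates passed at 2.10. With quantile normalization Glotr_125226 passed at 1.86 and Glotr_77119 did not, at -0.95, and with an adjusted p under 0.05 Glotr_125226 passed at 1.12 and 3 MFS-named genes were lower on cedar than on cellulose.

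Leaving out each library gave a log2 difference between the substrates of -2.15 to -1.80 for Glotr_77119 and of 0.71 to 1.32 for Glotr_125226, for which the adjusted p by limma ran between 0.00106 and 0.145 over all alternatives. The neighbours that rose on cellulose numbered 3 to 4, and the MFS-named genes higher on cedar than on cellulose 3 to 12 and lower 0 to 1. Replicate numbers are shared between groups, but samples with the same number did not deviate together (r = 0.19, -0.42 and -0.26 between cedar and cellulose), so they share only a number. With the replicate number as a block, Glotr_77119 between the substrates was -2.02 (adjusted p = 0.0154 by limma) and no longer passed, and 2 MFS-named genes were higher and 0 lower on cedar. The alternative for relatives by protein sequence was not run. With 3 libraries a group and no read counts, small changes of low genes cannot be judged.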
